A study of Mus musculus with 27 samples.

Results

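Saa1, Saa2, Orm1, Orm2, Hp, Hpx, Lcn2, Crp and Apcs, 9 genes that encode acute phase plasma proteins of the liver, were followed across freshly isolated mouse hepatocytes, hepatocyte organoids (HepOrgs) and periportal assembloids. They were picked by name from the 21850 gene rows that the bulk RNA-seq table holds for each library, and all 9 had enough counts to be tested in every comparison. The study built assembloids of hepatocytes, cholangiocytes and portal mesenchymal cells to model the periportal region of the liver, and asked how hepatocytes change with culture medium and with the number of mesenchymal cells. Polyadenylated RNA from 9 conditions was profiled with 3 libraries each, 27 in all.

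Freshly isolated hepatocytes came from wild-type C57BL/6 mice and were not cultured. Adult animals of both sexes were used. HepOrgs were grown from primary hepatocytes in the expansion medium HM-Wnt, which contains growth factors, and at passage 2 they were kept in it or switched to the minimal medium MM. Both media contained Wnt conditioned medium and were used for 7 days (1 week) or 14 days (2 weeks). Each well of assembloids joined 10 HepOrgs with 1000 cholangiocytes from nuc-tdTomato organoids and with portal mesenchymal cells sorted by the Pdgfra reporter and SCA1. Homeostatic-like assembloids were made with 250 mesenchymal cells per well and fibrotic-like assembloids with 2500. They were kept in MM for 7 days (1 week) or 18 days (2.5 weeks), so no assembloid was matched in time to the HepOrgs of 2 weeks. Replicate 3 of the freshly isolated hepatocytes is wild type by its title and heterozygous for MDR2 by its genotype label, and it was used by its title. The labels do not say whether replicates came from separate animals or cultures, so p-values measure the spread between these libraries, which may be technical.

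Acute phase proteins are plasma proteins whose production by hepatocytes changes during infection, injury and inflammation. Interleukin 6 and related cytokines act through STAT3, and interleukin 1 and TNF act through NF-kB, while C/EBP factors and glucocorticoids take part at many of these genes. Some members also respond outside the liver, and lipocalin 2 in particular is made by epithelia and neutrophils. Crp is a strongly induced acute phase gene in humans and only a weak one in mice, where serum amyloid A and serum amyloid P (Apcs) take the larger part.

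Total counts per library ranged from 30289364 to 65348596 (median 43727965). Values below are levels in CPM, the counts of a gene scaled to 1000000 in a library, after TMM scaling over the 27 libraries, and a series of 3 values is in the order of replicates 1, 2 and 3. Libraries of 1 condition were unequal. Replicate 2 of the homeostatic-like assembloids at 1 week had counts in 8465 genes, against 14016 to 16018 in each of the other 26 libraries. It had 526 CPM of Alb, the albumin gene, against 6714 and 11881 in its partners, and 1386 CPM of the cholangiocyte keratin Krt19 against 13.8 and 127. Replicate 3 of the fibrotic-like assembloids at 1 week (607 CPM of Alb, 951 of Krt19) and replicate 2 at 2.5 weeks (3525 and 1649) also stood apart in Alb and Krt19. They had counts in 15410 and 16018 genes. The members were lowest in these libraries in 9, 7 and 9 of 9 genes of their condition. Replicate 2 of the freshly isolated hepatocytes was the highest of its condition for 7 members. It also had the highest summed level of 8 macrophage and leukocyte markers, 361 CPM against 35.7 and 130. In bulk libraries fewer hepatocytes and less RNA per hepatocyte cannot be told apart.

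On GRCm39, Saa1 (ENSMUSG00000074115) lies at chr7:46389916-46392547 on the minus strand and Saa2 (ENSMUSG00000057465) at chr7:46401214-46403737 on the plus strand. Orm1 (ENSMUSG00000039196) lies at chr4:63261052-63272189 and Orm2 (ENSMUSG00000061540) at chr4:63280686-63284115, both on the plus strand. The paralogues Saa1 and Saa2, and Orm1, Orm2 and Orm3, are close in sequence, so the split of reads within each family is uncertain. Hp (ENSMUSG00000031722) is at chr8:110301759-110305804 and Hpx (ENSMUSG00000030895) at chr7:105240817-105249344, both on the minus strand. Lcn2 (ENSMUSG00000026822) is at chr2:32274645-32278264 on the minus strand. The pentraxin genes Crp (ENSMUSG00000037942), at chr1:172525614-172660598 on the plus strand, and Apcs (ENSMUSG00000026542), at chr1:172721528-172722611 on the minus strand, are neighbours. Each value counts reads of a whole gene. Levels of different genes are compared per kilobase of the canonical transcript, while shares, ranks and ratios of counts between genes are not corrected for length and only show how they move between libraries. This transcript was used because the length used in the deposited table is in most cases the whole gene span, 134977 bases for Crp against 1714 for its transcript.

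The 250 bases upstream of the start site are shown for 5 members whose levels moved most or against the rest, from RefSeq on GRCm38.p6, another build than that of the counts. Matches to the 5 motifs searched are in capitals.
Saa1, chr7:46742981-46743230, minus strand: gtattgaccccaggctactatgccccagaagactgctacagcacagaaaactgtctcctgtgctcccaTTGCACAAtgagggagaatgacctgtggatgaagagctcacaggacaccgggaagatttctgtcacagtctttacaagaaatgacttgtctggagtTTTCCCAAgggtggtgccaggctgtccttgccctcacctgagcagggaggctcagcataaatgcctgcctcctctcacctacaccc
Saa2, chr7:46751583-46751832, plus strand: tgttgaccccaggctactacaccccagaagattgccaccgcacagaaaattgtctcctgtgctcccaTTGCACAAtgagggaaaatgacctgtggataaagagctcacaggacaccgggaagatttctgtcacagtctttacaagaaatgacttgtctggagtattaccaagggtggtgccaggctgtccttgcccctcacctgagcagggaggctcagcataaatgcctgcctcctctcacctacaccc
Orm2, chr4:63362199-63362448, plus strand: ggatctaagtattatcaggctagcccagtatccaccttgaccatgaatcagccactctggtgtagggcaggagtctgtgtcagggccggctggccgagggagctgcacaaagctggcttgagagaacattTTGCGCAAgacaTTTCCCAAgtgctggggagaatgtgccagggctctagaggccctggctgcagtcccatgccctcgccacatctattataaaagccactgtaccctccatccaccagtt
Lcn2, chr2:32387740-32387989, minus strand: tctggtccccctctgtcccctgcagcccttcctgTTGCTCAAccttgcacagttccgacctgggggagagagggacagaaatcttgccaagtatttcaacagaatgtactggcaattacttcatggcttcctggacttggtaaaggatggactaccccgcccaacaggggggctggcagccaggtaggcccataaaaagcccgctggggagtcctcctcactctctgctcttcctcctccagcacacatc
Crp, chr1:172697806-172698055, plus strand: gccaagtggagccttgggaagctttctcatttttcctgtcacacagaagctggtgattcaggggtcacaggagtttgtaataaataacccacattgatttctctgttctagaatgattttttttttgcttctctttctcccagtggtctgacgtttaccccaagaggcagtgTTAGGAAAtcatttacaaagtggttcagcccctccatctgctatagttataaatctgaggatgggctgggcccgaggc

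The table of start sites held 7 of the 9 members, without Orm1 and Hp. Every capital stretch above is a match to the C/EBP letters TTNNGNAA, read on both strands, and 6 of the 7 members had at least 1 match, as did 36.8% of all 32851 promoters in that table. From the start site the matches lie at −182 to −175 and −86 to −79 in Saa1, at −183 to −176 in Saa2, at −120 to −113 and −108 to −101 in Orm2, at −216 to −209 in Lcn2 and at −78 to −71 in Crp. Apcs had no C/EBP match. It was the 1 member with the STAT letters TTCNNNGAA (7.02% of promoters) and the interleukin 6 response letters CTGGGAA (9.1%). No member had the NF-kB letters GGG and TTCC (4.65% of promoters) or the glucocorticoid element letters GNACA and TGTNC (0.387%), each with any 3 letters between. The upstream sequences of Saa1 and Saa2 were 94.8% identical over 251 aligned columns, with 13 columns that differed, whereas other pairs of members were 43.3 to 53.9% identical. A match is a description of the letters only.

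The 9 genes together took 1.01 ± 0.29% of all counts (SD, n = 3) in freshly isolated hepatocytes. In HM-Wnt it was 3.18 ± 0.81% after 1 week and 2.43 ± 0.84% after 2, and in MM 5.52 ± 2.32% and 6.98 ± 2.36%. Among assembloids it was highest in the homeostatic-like ones of 2.5 weeks, at 8.61 ± 1.27%. Haptoglobin and hemopexin made up 68.5 to 85% of the members' counts in every condition. Counted over all genes of a library, Hp ranked 35 to 55 in freshly isolated hepatocytes, 2 to 9 in HM-Wnt HepOrgs and 2 to 3 in MM HepOrgs. It ranked 2 in all 3 homeostatic-like libraries of 2.5 weeks, where Hpx ranked 3.

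**Figure D1:**
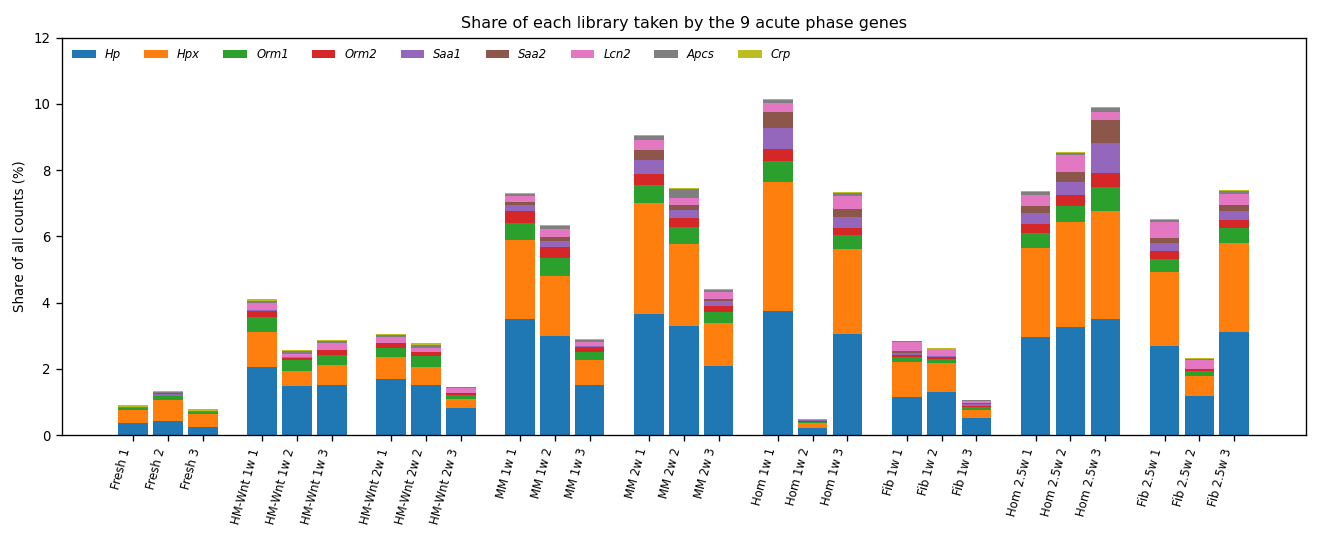
Share of all counts (%, vertical axis from 0) taken by each of the 9 acute phase genes, stacked, in each of the 27 libraries, which are grouped by condition. Bars of freshly isolated hepatocytes reach 0.789 to 1.34% and those of homeostatic-like assembloids at 2.5 weeks 7.36 to 9.9%, with Hp and Hpx as the bulk of every bar.

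Saa1 and Saa2 encode serum amyloid A, apolipoproteins that ride on high-density lipoprotein during inflammation. The level of Saa1 in freshly isolated hepatocytes was 136, 909 and 123 CPM, and that of Saa2 was 27.9, 526 and 37.7 CPM. Replicate 2 thus held most of the transcripts of both genes in that condition. In HM-Wnt, Saa1 was at 124, 231 and 106 CPM at 1 week and at 104, 67.5 and 26.7 CPM at 2 weeks. Saa2 was at 29.1, 63.9 and 18.6 CPM and then at 11.7, 10.1 and 3.52 CPM. Both genes had their lowest condition means in HM-Wnt at 2 weeks. In MM, Saa1 was at 2007, 1999 and 170 CPM at 1 week and at 4827, 2807 and 1243 CPM at 2 weeks. Saa2 there was at 1055, 1324 and 22.9 CPM, and then at 3308, 1719 and 792 CPM. Replicate 3 was the lowest at both times, and at 1 week it lay within the range of HM-Wnt.

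In homeostatic-like assembloids Saa1 was at 8308, 207 and 3130 CPM at 1 week and at 3503, 4295 and 11030 CPM at 2.5 weeks. In fibrotic-like assembloids it was at 450, 64.6 and 280 CPM and then at 2200, 89.7 and 2428 CPM. All 3 fibrotic-like libraries of 2.5 weeks lay below all 3 homeostatic-like ones. Saa2 followed the same order, with 6360, 97.5 and 2303 CPM against 368, 27.2 and 172 CPM at 1 week, and 2488, 3201 and 8880 CPM against 1650, 52 and 1633 CPM at 2.5 weeks. Of the members, Saa2 had the widest range of condition means, 577-fold between HM-Wnt at 2 weeks (8.42 CPM) and homeostatic-like assembloids at 2.5 weeks (4857 CPM), and Saa1 had 95.1-fold between the same conditions. The ratio of Saa2 to Saa1 counts moved too, from 0.113 to 0.149 in HM-Wnt at 2 weeks to 0.612 to 0.685 in MM at 2 weeks and 0.71 to 0.805 in homeostatic-like assembloids at 2.5 weeks. Of the 8 pairs of neighbours in the order of condition means, the libraries were apart in 1 for each gene, HM-Wnt at 2 weeks below HM-Wnt at 1 week.

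Orm1 and Orm2 encode orosomucoids, or alpha-1-acid glycoproteins, abundant plasma carriers of small molecules. The level of Orm1 was 653, 1490 and 802 CPM in freshly isolated hepatocytes, 4878, 4258 and 3397 CPM in HM-Wnt at 1 week and 6010, 6030 and 2193 CPM in MM at 1 week. At 2 weeks it was 2701, 3468 and 1143 CPM in HM-Wnt and 5813, 5714 and 3356 CPM in MM. The freshly isolated hepatocytes lay below every MM library. Orm2 stood lower in freshly isolated hepatocytes, at 9.61, 130 and 5.33 CPM. It was at 2169, 922 and 1453 CPM in HM-Wnt and 4178, 3707 and 1365 CPM in MM at 1 week, and at 1412, 1111 and 464 CPM and 3897, 3109 and 1825 CPM at 2 weeks. No HepOrg library overlapped the freshly isolated hepatocytes.

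Per kilobase of transcript, Orm2 was at 62.2 CPM against 1190 for Orm1 in freshly isolated hepatocytes, and at 3798 against 6013 in MM at 2 weeks. The Orm2 to Orm1 ratio of counts was 0.00665 to 0.087 in freshly isolated hepatocytes, 0.217 to 0.523 in HM-Wnt and 0.544 to 0.695 in MM. In homeostatic-like assembloids Orm2 was at 4958, 62.7 and 1995 CPM at 1 week and 2847, 3324 and 5265 CPM at 2.5 weeks, and in fibrotic-like ones at 418, 515 and 207 CPM and 2262, 405 and 2434 CPM. Orm1 had 8233, 179 and 3879 CPM against 926, 941 and 441 CPM, and 4971, 5414 and 8925 CPM against 3729, 804 and 4372 CPM. Both genes were thus lower in every fibrotic-like library of 2.5 weeks than in every homeostatic-like one. For Orm1 no neighbours in the order of condition means were apart, and for Orm2 only freshly isolated hepatocytes and fibrotic-like assembloids at 1 week were.

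Hp encodes haptoglobin, the plasma protein that binds free hemoglobin, and Hpx encodes hemopexin, which binds free heme. The level of Hp was 5085, 6549 and 3238 CPM in freshly isolated hepatocytes, 22403, 19265 and 16063 CPM in HM-Wnt at 1 week and 40160, 33036 and 14234 CPM in MM at 1 week. At 2 weeks it was 17317, 15640 and 7393 CPM in HM-Wnt and 40924, 37332 and 20667 CPM in MM, and every HepOrg library was above the freshly isolated hepatocytes. Hpx did not share this order. It was at 5683, 9496 and 5233 CPM in freshly isolated hepatocytes, which overlapped HM-Wnt at 1 week (11358, 6064 and 6216 CPM) and at 2 weeks (6732, 5729 and 2423 CPM). In MM it was at 26989, 20341 and 7020 CPM at 1 week, where replicate 3 lay within the range of the freshly isolated hepatocytes, and at 37589, 28227 and 12952 CPM at 2 weeks, above all of their libraries and all of HM-Wnt. The Hpx to Hp ratio was 1.12 to 1.62 in freshly isolated hepatocytes, 0.315 to 0.507 in HM-Wnt, 0.493 to 0.919 in MM and 0.903 to 0.97 in homeostatic-like assembloids at 2.5 weeks.

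In homeostatic-like assembloids Hp was at 50107, 1334 and 28036 CPM at 1 week and 32067, 34834 and 43585 CPM at 2.5 weeks, and in fibrotic-like ones at 8206, 9301 and 2762 CPM and 25782, 7239 and 29641 CPM. Hpx was at 51808, 1185 and 23729 CPM and 28959, 33796 and 40658 CPM against 7459, 6182 and 1218 CPM and 21461, 3852 and 25395 CPM. Both genes were at their highest in replicate 1 of the homeostatic-like assembloids at 1 week and, together with the other members, at their lowest of that condition in replicate 2. For neither gene were any neighbours in the order of condition means apart.

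Lcn2 encodes lipocalin 2, a secreted protein that binds bacterial siderophores and so withholds iron. Its level in freshly isolated hepatocytes was 4.87, 23.5 and 3.81 CPM, which rest on 183, 537 and 125 counts. In HM-Wnt it was at 2492, 1031 and 2249 CPM at 1 week and 1759, 1295 and 1298 CPM at 2 weeks, and in MM at 1944, 2596 and 1300 CPM and 3264, 2433 and 2108 CPM. The media overlapped at 1 week and were apart at 2 weeks. Homeostatic-like assembloids had 3766, 139 and 3625 CPM at 1 week and 3495, 5390 and 3037 CPM at 2.5 weeks, and fibrotic-like ones 2026, 1511 and 348 CPM and 4502, 1638 and 3197 CPM. The condition means spanned 370-fold, from 10.7 CPM in freshly isolated hepatocytes to 3974 CPM in homeostatic-like assembloids at 2.5 weeks, and every library of cultured cells was above every freshly isolated one. Freshly isolated hepatocytes and fibrotic-like assembloids at 1 week were the only neighbours in the order of means that were apart.

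The pentraxins are pattern-recognition proteins of the plasma, and Crp encodes C-reactive protein and Apcs serum amyloid P component. Crp was the member with its highest level in freshly isolated hepatocytes, at 682, 602 and 624 CPM. It was at 418, 356 and 395 CPM in HM-Wnt and 325, 499 and 294 CPM in MM at 1 week, and at 390, 494 and 230 CPM and 378, 401 and 245 CPM at 2 weeks. Every cultured library was below the freshly isolated ones, and the media overlapped. Homeostatic-like assembloids had 471, 43.9 and 213 CPM and 344, 390 and 415 CPM, and fibrotic-like ones 90.9, 120 and 27.1 CPM and 244, 99.9 and 281 CPM. Apcs was at 393, 199 and 437 CPM in freshly isolated hepatocytes. Its HepOrg libraries spread widely, from 126 to 1172 CPM in HM-Wnt and from 516 to 3062 CPM in MM, with replicate 2 the highest of HM-Wnt at both times and of MM at 2 weeks. In assembloids it ran from 735 to 1272 CPM in homeostatic-like and 179 to 924 CPM in fibrotic-like ones at 2.5 weeks. At 1 week it was at 1047, 0.354 and 745 CPM against 148, 151 and 96.8 CPM, and the value of 0.354 rests on 19 counts. The Apcs to Crp ratio was 0.33 to 0.701 in freshly isolated hepatocytes and 1.76 to 7.64 in MM. Of the neighbours in the order of condition means, HM-Wnt at 1 week and freshly isolated hepatocytes were apart for Crp, and fibrotic-like assembloids at 1 week and freshly isolated hepatocytes for Apcs.

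**Figure D2:**
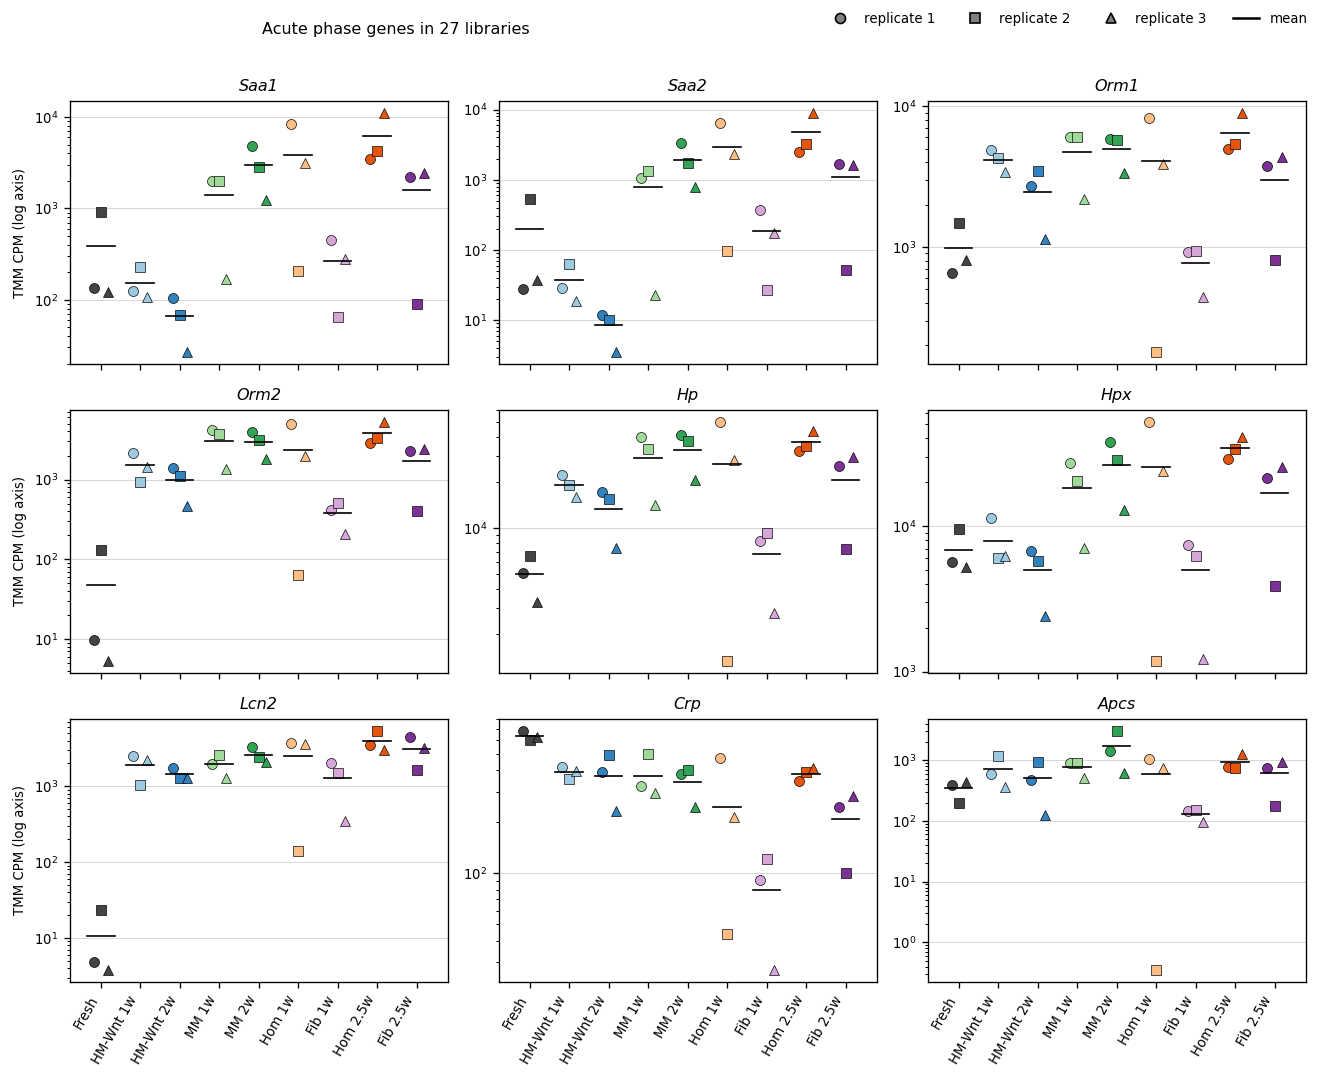
Level of each of the 9 genes (TMM CPM, log axis, 1 panel a gene) in the 9 conditions, with replicate 1 as a circle, 2 as a square, 3 as a triangle and the mean as a line. Lcn2 and Orm2 are lowest in freshly isolated hepatocytes and Crp is highest there, Saa1 and Saa2 are lowest in HM-Wnt at 2 weeks, and replicate 2 of the homeostatic-like assembloids at 1 week lies far below its partners in all 9 panels.

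Against freshly isolated hepatocytes, Lcn2, Orm2, Orm1 and Hp rose in HepOrgs of both media at both times. Lcn2 had the largest change, 176-fold in HM-Wnt at 1 week (log2 fold change 7.46 ± 0.75 SE, adjusted p = 5.25e-06) and 247-fold in MM at 2 weeks (7.95 ± 0.77, adjusted p = 5.31e-06). Without freshly isolated replicate 2, its highest library in that condition, these were 432-fold and 611-fold. Orm2, for which the same holds, was at log2 fold changes of 7.63, 7.02, 8.67 and 8.65 without it in HM-Wnt at 1 and 2 weeks and MM at 1 and 2 weeks, against 4.94, 4.34, 6.00 and 5.96 with it. Crp fell in all 4 comparisons, by 0.75, 0.81, 0.78 and 0.88 on the log2 scale in HM-Wnt at 1 and 2 weeks and MM at 1 and 2 weeks. These tests are from edgeR's quasi-likelihood method with Benjamini-Hochberg adjustment over 13405 genes and a threshold of 0.05, and the 4 comparisons share the freshly isolated libraries.

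In HM-Wnt at 1 week 5 members passed, 4 higher and 1 lower, where 24.9% of all genes passed as higher and 24.8% as lower. The median log2 fold change of the members was 0.99 and that of all genes 0.02. Orm2 rose by a log2 fold change of 4.94 ± 1.06 (adjusted p = 0.00185), Orm1 by 2.04 ± 0.49 (adjusted p = 0.00364) and Hp by 1.91 ± 0.45 (adjusted p = 0.00359). Saa1 had −1.39 ± 0.92, Saa2 −2.46 ± 1.25, Hpx 0.17 ± 0.54 and Apcs 0.99 ± 0.68, with adjusted p of 0.118 to 0.815. In HM-Wnt at 2 weeks 7 members passed, 4 higher and 3 lower, beside 26.1% and 25.7% of all genes. Saa1 fell by 2.59 ± 0.96 (adjusted p = 0.036) and Saa2 by 4.58 ± 1.38 (adjusted p = 0.0135), while Hpx had −0.49 ± 0.54 (adjusted p = 0.471). The calls of Saa1 and Saa2 were lost without freshly isolated replicate 2 (−1.01 with adjusted p = 0.333, and −1.99 with adjusted p = 0.141) and without replicate 3 of HM-Wnt (adjusted p = 0.118 and 0.0535). That of Saa1 was also lost without replicate 2 of HM-Wnt (adjusted p = 0.0841), and at 1 week both genes turned to 0.19 and 0.12 without freshly isolated replicate 2.

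In MM at 1 week 5 members passed, 4 higher and 1 lower, beside 21.5% and 21.3% of all genes, and the median log2 fold change was 2.03 against 0.00 for all genes. Orm2 rose by 6.00 ± 1.12 (adjusted p = 8.92e-04), Hp by 2.55 ± 0.47 (adjusted p = 7.73e-04) and Orm1 by 2.27 ± 0.49 (adjusted p = 0.00248). Saa1 (1.84 ± 0.93, adjusted p = 0.127), Saa2 (2.03 ± 1.23, adjusted p = 0.201) and Hpx (1.41 ± 0.55, adjusted p = 0.0548) did not pass. Without freshly isolated replicate 2 they did, at 3.42, 4.60 and 1.72 with adjusted p of 0.0144, 0.0152 and 0.0483. Without replicate 3 of MM, Saa1 (2.39, adjusted p = 0.0427) and Hpx (1.82, adjusted p = 0.0165) passed as well. Freshly isolated replicate 2 was the highest of its condition for these 3 genes. Replicate 3 of MM was the lowest of its condition for all 9 members at both times. Leaving out either is a removal on 1 side that by itself widens a rise in MM, here and in later comparisons.

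After 2 weeks in MM 8 members passed, 7 higher and 1 lower, beside 19.7% and 20% of all genes. The median was 2.76 against −0.01. All 3 MM libraries were above all 3 freshly isolated ones for 8 members, as for 25.6% of all genes. Saa1 rose 7.76-fold (2.96 ± 0.97, adjusted p = 0.0267), Hp 6.75-fold (2.76 ± 0.47, adjusted p = 5.03e-04), Hpx 3.93-fold (1.97 ± 0.56, adjusted p = 0.0133) and Apcs 5.02-fold (2.33 ± 0.71, adjusted p = 0.019). Saa2, at 3.33 ± 1.30, had an adjusted p of 0.0565, and of 0.00561 (log2 fold change 5.93) without freshly isolated replicate 2. Saa1's call was lost without freshly isolated replicate 1 or 3 or replicate 1 of MM (adjusted p = 0.0829 to 0.0873), and its log2 fold change was 4.55 without freshly isolated replicate 2. The call of Apcs was lost without freshly isolated replicate 2 (adjusted p = 0.0606) or MM replicate 2 (1.58, adjusted p = 0.101), and that of Hpx without replicate 1 of MM (adjusted p = 0.0515).

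The falls of Crp had an adjusted p of 0.0448 to 0.0276 and of 0.482, 0.853, 0.517 and 0.211 by limma on log2(TPM + 1). In HM-Wnt at 1 week its call was lost without any 1 of the 6 libraries (adjusted p = 0.0671 to 0.12). In MM at 1 week it was lost without each library but replicate 2 of MM (adjusted p = 0.0621 to 0.169). In HM-Wnt at 2 weeks it was lost without freshly isolated replicate 1 or 3 or HM-Wnt replicate 1 or 3 (adjusted p = 0.0642 to 0.137). In MM at 2 weeks it was lost without freshly isolated replicate 1 or 3 or replicate 3 of MM (adjusted p = 0.065 to 0.133). In HM-Wnt at 2 weeks the calls of Orm1 (without replicates 1 or 3 of the freshly isolated hepatocytes or 1 or 2 of HM-Wnt, adjusted p = 0.0874 to 0.149) and Hp (without replicate 3 of the freshly isolated hepatocytes or 1 or 2 of HM-Wnt, adjusted p = 0.0526 to 0.0712) were lost too.

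**Figure D3:**
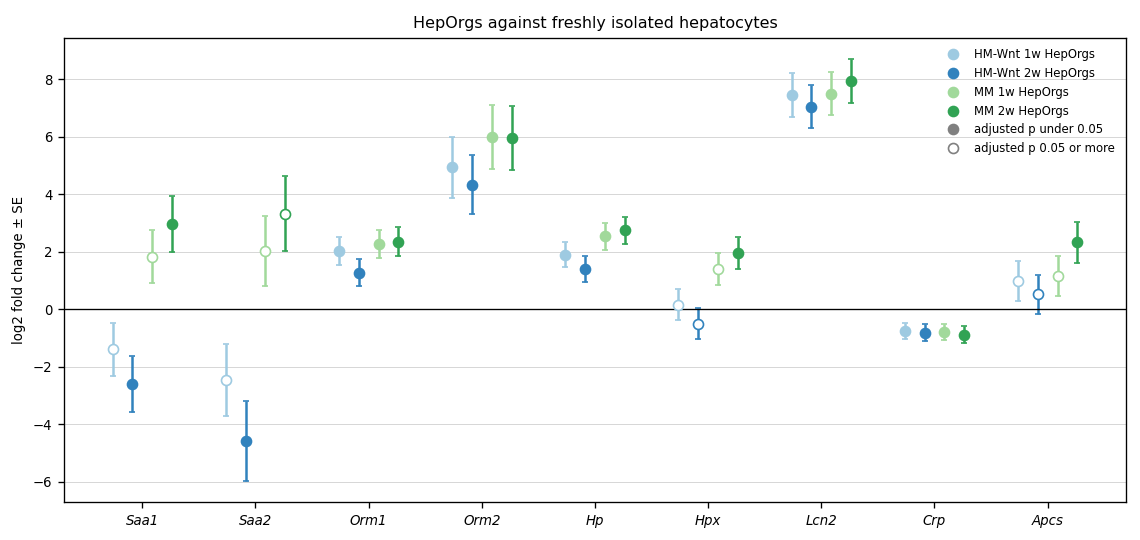
Log2 fold change ± SE of each of the 9 genes in HepOrgs of each medium and time against freshly isolated hepatocytes (3 libraries a condition), with filled symbols for an adjusted p under 0.05. Lcn2 lies at 7.05 to 7.95 and Orm2 at 4.34 to 6.00 in all 4 comparisons, Crp lies below 0 in each, and Saa1 and Saa2 lie below 0 in HM-Wnt and above 0 in MM.

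Between the media, Saa1 and Saa2 had the widest differences, and hemopexin was the next. At 2 weeks Saa1 was 47.2-fold higher in MM than in HM-Wnt (log2 fold change 5.56 ± 0.95, adjusted p = 0.00514), Saa2 242-fold (7.92 ± 1.35, adjusted p = 0.00506, and 7.26 without replicate 1 of MM) and Hpx 5.56-fold (2.48 ± 0.59, adjusted p = 0.023). These 3 members passed as higher, where 6.84% of 12989 genes did, and the members' median was 1.63 against −0.02. All 3 MM libraries were above all 3 HM-Wnt libraries for 6 members, as for 16.5% of all genes. Orm2 (1.63 ± 0.53), Hp (1.36 ± 0.45), Orm1 (1.09 ± 0.46), Apcs (1.82 ± 0.72) and Lcn2 (0.91 ± 0.36) had adjusted p of 0.0684 to 0.145. Crp had −0.06 ± 0.31 (adjusted p = 0.93). The call of Hpx was lost without any library but replicate 3 of MM (adjusted p = 0.0533 to 0.0855), without which Orm2 (1.90, adjusted p = 0.0491) and Hp (1.63, adjusted p = 0.0439) passed.

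At 1 week no member passed in edgeR, where 2.98% of genes did in either direction, and 2 members had an unadjusted p under 0.05, as had 22.5% of genes. They were Saa1, at 3.22 ± 0.85 (9.33-fold, adjusted p = 0.0628), and Saa2, at 4.48 ± 1.15 (22.3-fold, adjusted p = 0.0589). DESeq2 called both (adjusted p = 2.56e-04 and 0.0015), limma on log2(TPM + 1) called 0 members, and edgeR without replicate 3 of MM called both (3.75 with adjusted p = 0.0145, and 5.05 with adjusted p = 0.00873). The other members lay between −0.04 (Crp) and 1.22 (Hpx).

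Over both times 5 members were higher in MM, beside 11.5% of all genes. They were Saa1 (4.39 ± 0.64, adjusted p = 0.00103), Saa2 (6.20 ± 0.89, adjusted p = 9.40e-04), Hpx (1.85 ± 0.41, adjusted p = 0.00942), Orm2 (1.34 ± 0.37, adjusted p = 0.0258) and Hp (0.99 ± 0.32, adjusted p = 0.0442). Lcn2, which rose in both media against freshly isolated hepatocytes, had 0.47 here (adjusted p = 0.215), and Crp −0.05 (adjusted p = 0.894). Without replicate 2 or 3 of HM-Wnt at 1 week, or replicate 1 or 2 of MM at either time, 3 members passed. Orm2 was then at 1.19 to 1.32 (adjusted p = 0.0536 to 0.0688). The call of Hp was lost without any library but replicate 3 of MM at either time (0.83 to 1.11, adjusted p = 0.0569 to 0.114).

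Same-numbered HepOrg libraries deviated together, so the medium was also compared with the replicate number as a block. At 1 week the block called Saa1 (2.69 ± 0.54, adjusted p = 0.017) and Saa2 (3.85 ± 0.84, adjusted p = 0.0237), beside 1232 of 12989 genes. At 2 weeks it called 7 members, beside 2544 genes, and added Orm1 (1.17 ± 0.25, adjusted p = 0.0102), Orm2 (1.69 ± 0.35, adjusted p = 0.00791), Hp (1.38 ± 0.24, adjusted p = 0.00325) and Apcs (1.89 ± 0.32, adjusted p = 0.00325). Over both times it added Orm1 (0.61 ± 0.18, adjusted p = 0.026) and Apcs (1.10 ± 0.22, adjusted p = 0.00535), beside 3759 genes. Lcn2 and Crp passed in none of the 3 blocked comparisons.

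**Figure D4:**
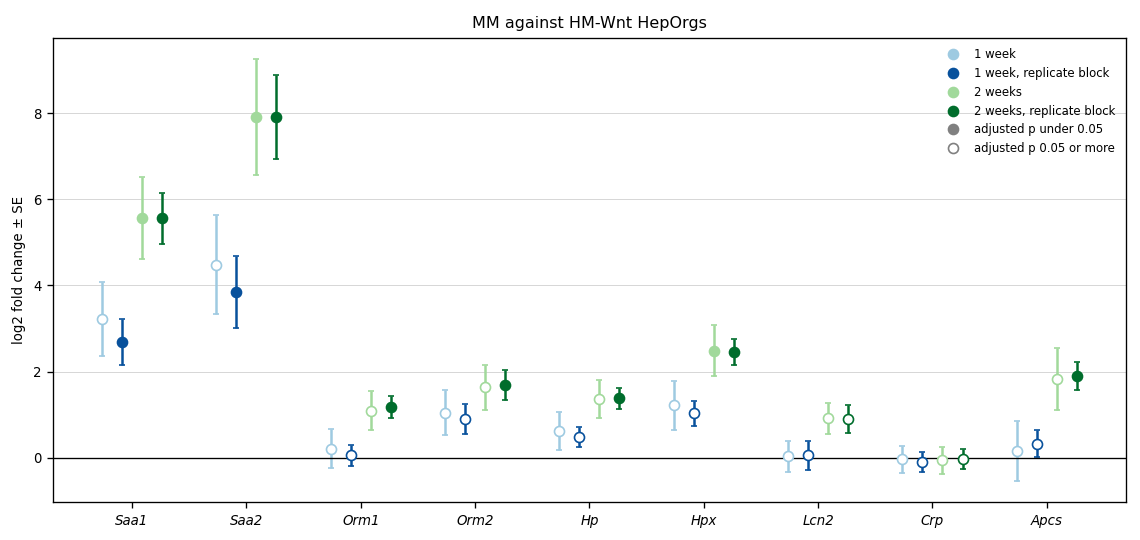
Log2 fold change ± SE of each of the 9 genes in MM against HM-Wnt HepOrgs at 1 and 2 weeks (3 libraries a condition), without and with the replicate number as a block, with filled symbols for an adjusted p under 0.05. Saa1 and Saa2 lie highest at both times, 7 members are filled at 2 weeks with the block, and Crp lies at −0.11 to −0.04.

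No member passed the test for time in HepOrgs. Over both media, 2 weeks against 1 week gave log2 fold changes of −0.40 to 0.36 and 0 members called, beside 1 of 12989 genes (0.0077%), with no member at an unadjusted p under 0.05 (11.8% of genes) and none called by DESeq2. The difference of the medium effect between the times was 3.44 ± 1.46 for Saa2 (adjusted p = 0.671 in edgeR) and 2.34 ± 1.12 for Saa1 (adjusted p = 0.673). No member and no gene passed (0% of 12989), 951 genes (7.32%) had an unadjusted p under 0.05, of which Saa2 was the 1 member, and DESeq2 called 0 members and 39 genes. With the replicate block these differences were 4.07 ± 1.09 (adjusted p = 0.193) and 2.87 ± 0.72 (adjusted p = 0.181).

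In assembloids every member had a lower fitted level with 2500 than with 250 mesenchymal cells per well, and none passed the test in edgeR. At 1 week the log2 fold changes ran from −4.03 ± 1.57 (Saa2, adjusted p = 0.314) and −3.95 ± 1.42 (Saa1, adjusted p = 0.296) to −1.02 ± 0.96 (Lcn2, adjusted p = 0.688). Their median was −2.43 and that of all 14255 genes 0.20. No gene passed (0%), 2012 genes (14.1%) had an unadjusted p under 0.05, and 4 of these were members. At 2.5 weeks the members lay between −2.16 ± 1.44 (Saa2, adjusted p = 0.913) and −0.39 ± 0.95 (Lcn2, adjusted p = 1), with a median of −1.06 against 0.03, no gene passed (0%), and no member was among the 944 genes (6.62%) with an unadjusted p under 0.05. For 7 members all 3 fibrotic-like libraries of 2.5 weeks were below all 3 homeostatic-like ones, as for 15.3% of all genes, and for Lcn2 and Apcs the libraries overlapped.

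Over both times the differences were −2.99 ± 0.96 for Saa1 (adjusted p = 0.138), −3.09 ± 1.06 for Saa2 (0.159), −1.81 ± 0.73 for Orm1 (0.209), −1.94 ± 0.79 for Orm2 (0.215) and −1.29 ± 0.54 for Crp (0.231). These 5 members had an unadjusted p under 0.05, as had 2678 genes (18.8%), and again no gene passed (0%). DESeq2 called Saa1 (−3.01, adjusted p = 0.00849) and Saa2 (−3.11, adjusted p = 0.0123) over both times and at 1 week (adjusted p = 0.0273 and 0.0408), among 1724 and 791 genes, and no member at 2.5 weeks, among 287 genes. Limma on log2(TPM + 1) called no member. On that scale Lcn2 (0.43 and 0.12 at 1 and 2.5 weeks, 0.27 over both) and Apcs (1.58 at 1 week, 0.63 over both) turned to a higher level in fibrotic-like assembloids.

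Replicate 2 of the homeostatic-like assembloids at 1 week, in which Socs3, Saa3 and Orm3 had 0 counts, was lowest of its condition for all 9 members. Leaving out only this library is a removal on 1 side of the comparison. Replicate 3 of the fibrotic-like assembloids at 1 week and replicate 2 at 2.5 weeks were kept. They were likewise low in Alb and high in Krt19, but not low in the number of genes with counts. Without the homeostatic-like library edgeR called 8 members as lower over both times, among 4373 of 14748 genes. Orm1 was then at −2.09 ± 0.48 (adjusted p = 0.0153), Orm2 at −2.22 ± 0.50 (0.015), Saa1 at −3.27 ± 0.82 (0.0197) and Saa2 at −3.38 ± 0.90 (0.0239). Crp was at −1.54 ± 0.41 (0.0238), Apcs at −1.73 ± 0.39 (0.015), Hp at −1.72 ± 0.54 (0.0389) and Hpx at −2.03 ± 0.65 (0.041), while Lcn2, at −0.98 ± 0.45, had an adjusted p of 0.119. At 1 week alone Orm1 (−3.04, adjusted p = 0.0442), Orm2 (−3.26, 0.0442) and Apcs (−2.82, 0.0431) passed, among 1181 genes.

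**Figure D5:**
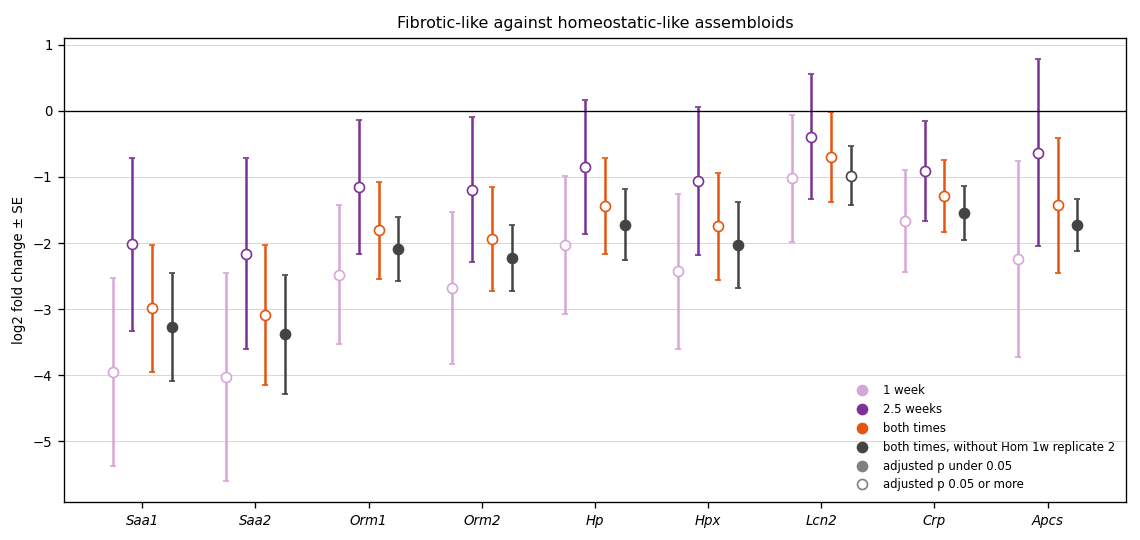
Log2 fold change ± SE of each of the 9 genes in fibrotic-like against homeostatic-like assembloids at 1 week, at 2.5 weeks, over both times, and over both times without replicate 2 of the homeostatic-like assembloids at 1 week, with filled symbols for an adjusted p under 0.05. All points lie below 0, and the filled ones are 8 members in the series without that library. The fibrotic-like libraries that stood apart in Alb and Krt19 were kept in that series.

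Levels of cell type markers are set beside this comparison. The summed level of 8 hepatocyte markers was 1016, 13991 and 24363 CPM (lowest, median and highest) in homeostatic-like and 1544, 9776 and 14174 CPM in fibrotic-like assembloids at 1 week. At 2.5 weeks it was 15540, 19231 and 19389 CPM against 6754, 19662 and 25431 CPM, so the groups overlapped at both times. That of 9 mesenchyme markers was 150, 331 and 981 CPM against 316, 2719 and 6605 CPM at 1 week and 194, 240 and 290 CPM against 1410, 4632 and 5120 CPM at 2.5 weeks. None of the 9 was at 0 in a whole condition, and at 2.5 weeks their sum was higher in all fibrotic-like than in all homeostatic-like libraries. The same held for 2 cholangiocyte markers at that time, with Krt19 at 64.6, 45.9 and 36.8 CPM against 200, 1649 and 193 CPM (13.4-fold, adjusted p = 0.742 in edgeR) and Epcam at 27.2, 17.9 and 7.81 CPM against 73.9, 502 and 89.9 CPM (12.2-fold, adjusted p = 0.742). The summed level of the 6 cholangiocyte markers overlapped, at 6538, 9105 and 10198 CPM against 6657, 8262 and 9188 CPM, and none was at 0 in a whole condition. Krt19 and Epcam were a small part of this sum. Of the others, Spp1 had a log2 fold change of −0.40 at 2.5 weeks, while Krt7 (3.43), Cftr (2.98) and Sox9 (0.95) were above 0. None of these passed in edgeR. At 1 week Krt19 overlapped too, at 13.8, 1386 and 127 CPM against 258, 78.7 and 951 CPM. The part of these markers in the differences of the members was not tested. Alb is also in the list of 8 negative acute phase proteins described below, so a ratio to Alb can move with either gene. Its own log2 fold change between the cell ratios at 2.5 weeks was 0.15 and did not pass in edgeR. Per 100 counts of Alb, Saa1 had 40.7, 45.1 and 167 counts in homeostatic-like and 2.54, 16.2 and 23 counts in fibrotic-like assembloids at 2.5 weeks. Orm1 had 56.8, 57.7 and 135 against 22.8, 29.2 and 39.1 there. Neither gene overlapped, and the share of all genes without overlap was not counted on this scale. Lcn2 overlapped at 2.5 weeks, at 40.6, 46 and 56.6 against 21.4, 46.5 and 47.2 counts. At 1 week Saa1 overlapped, at 39.4, 46.6 and 69.9 against 0.838, 9.63 and 46.1 counts per 100 of Alb. Orm1 overlapped too, at 34, 57.8 and 69.3 against 12.2, 19.8 and 72.7.

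From 1 to 2.5 weeks, over both cell ratios, the members' log2 fold changes were 0.98 (Lcn2) to 1.67 (Saa2), all above 0. No member and no gene passed (0% of 14255), no member had an unadjusted p under 0.05 among 598 genes (4.2%) that did, and DESeq2 called 0 genes. The change of the cell ratio effect with time, 0.63 to 1.92, did not pass for any member or gene (0%) in edgeR or DESeq2. No member was among the 278 genes (1.95%) with an unadjusted p under 0.05 there.

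Set beside MM HepOrgs of 1 week, the homeostatic-like assembloids of 1 week had log2 fold changes of −0.62 (Crp) to 1.86 (Saa2), and no member had an unadjusted p under 0.05 (14.2% of genes). Neither edgeR (0% of 14560 genes) nor DESeq2 (766 genes) called a member. In fibrotic-like assembloids of 1 week all 9 members had values below 0, from −3.09 ± 1.30 (Orm2, adjusted p = 0.198) to −0.66 ± 0.94 (Lcn2, adjusted p = 0.795). No member was among the 91 genes that passed (0.625%), while 4 members had an unadjusted p under 0.05, as had 20.2% of genes. Crp, at −2.29 ± 0.69, had an adjusted p of 0.0925. DESeq2 called Orm1 (−2.69, adjusted p = 0.0257) and Crp (−2.28, adjusted p = 0.0123). For 5 members all 3 fibrotic-like libraries were below all 3 MM HepOrg libraries, as for 21.9% of genes.

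Against freshly isolated hepatocytes, the assembloids of 2.5 weeks had 2 members called at either cell ratio, Lcn2 and Orm2. In homeostatic-like ones Lcn2 was 374-fold higher (8.55 ± 1.30, adjusted p = 0.0012) and Orm2 79.9-fold (6.32 ± 1.51, adjusted p = 0.021), where 4.35% of genes passed as higher. Without freshly isolated replicate 2 they were 919-fold and 513-fold higher. All 3 libraries were above all 3 freshly isolated ones for 8 members (25.1% of genes) and below for Crp (24.9%). The median was 2.90 against 0.02. Hp (2.90 ± 0.97, adjusted p = 0.0867), Orm1 (2.72 ± 0.96, 0.104) and Saa1 (4.02 ± 1.45, 0.113) did not pass here. DESeq2 called 6 members, and a fit of these 6 libraries alone called 9, but all genes called were then 2264 of 14560 and 4726 of 12690, against 1066 here. In fibrotic-like assembloids Lcn2 was 286-fold higher (8.16 ± 1.27, adjusted p = 0.00105) and Orm2 34.9-fold (5.13 ± 1.43, adjusted p = 0.0247), where 11% of genes passed as higher, and 707-fold and 224-fold without freshly isolated replicate 2. The other 7 had adjusted p of 0.114 (Crp, −1.63 ± 0.67) to 0.753, and 3 members had no overlap above the freshly isolated hepatocytes (30.6% of genes). Orm2's call was lost without freshly isolated replicate 1 or 3, replicate 3 of the homeostatic-like or replicate 1 or 3 of the fibrotic-like assembloids (adjusted p = 0.0503 to 0.0921).

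Neutrophils and macrophages also make some of these proteins. Of 8 neutrophil markers, which matter for Lcn2, the summed level was 0.16, 8.84 and 1 CPM in freshly isolated hepatocytes and 0.0679 to 0.735 CPM in all HepOrg libraries. There Ly6g was at 0 in all 4 conditions, Mpo was as well, and S100a9 had at most 1 count. Replicate 2 of the homeostatic-like assembloids at 1 week, with the lowest Lcn2 of its condition, had 15.5 CPM, nearly all of it 833 counts of S100a9. Epithelia make lipocalin 2 as well. The 6 cholangiocyte markers summed to 11.6 to 143 CPM in freshly isolated hepatocytes and 3532 to 15478 CPM in HepOrgs. In MM at 1 week Spp1 was 155-fold, Epcam 53.8-fold, Krt19 19.1-fold and Sox9 2.23-fold higher than in freshly isolated hepatocytes. Krt7, at 18.8-fold, did not pass there (adjusted p = 0.0738 in edgeR). Krt19 was at 0 to 0.832 CPM in freshly isolated hepatocytes and at 0.996 to 22.4 CPM in all HepOrg libraries. The part of these markers in the rise of Lcn2 was not tested. The 8 macrophage and leukocyte markers summed to 7.52 to 60.7 CPM in HepOrgs and 0.578 to 7.36 CPM in assembloids, with the Kupffer cell marker Clec4f at 0 in every condition of cultured cells. In MM at 1 week against freshly isolated hepatocytes, Cd68 of this list rose by 2.59 (adjusted p = 0.00577 in edgeR), while the others fell. In freshly isolated hepatocytes, at 35.7 to 361 CPM, all 8 had over 3 counts, and their part in the high members of replicate 2 was not tested.

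Other positive acute phase proteins were described from a list of 23 genes, all tested. For this list and the next ones, the share of all genes called in HM-Wnt at 1 and 2 weeks and MM at 1 and 2 weeks against freshly isolated hepatocytes was 24.9, 26.1, 21.5 and 19.7% higher and 24.8, 25.7, 21.3 and 20% lower, and the median of all genes was −0.01 to 0.03. Against freshly isolated hepatocytes 10 were higher and 3 lower in HM-Wnt at 1 week, 7 and 2 at 2 weeks, 8 and 2 in MM at 1 week and 10 and 1 at 2 weeks, with a median log2 fold change of 1.16, 0.15, 0.82 and 0.86. Among them Lrg1, a leucine-rich glycoprotein of plasma, rose by log2 fold changes of 2.32, 1.51, 1.66 and 1.75, and Fgl1, a fibrinogen-like protein of hepatocytes, by 2.78, 1.91, 2.60 and 2.71. The fibrinogen chain genes Fgb (1.19) and Fgg (1.16) rose in HM-Wnt at 1 week. The 2 lower genes in MM at 1 week were Hamp (−3.86) and Serpina3m (−1.14). The serpin gene Serpina3n was at 290 ± 66 CPM in freshly isolated hepatocytes, 2364 ± 815 CPM in HM-Wnt at 1 week and 1184 ± 145 CPM in MM at 2 weeks (SD, n = 3). In MM against HM-Wnt at 2 weeks 7 of the 23 were higher and 2 lower, beside 889 and 599 of 12989 genes. Among the higher ones were Cp, the copper carrier ceruloplasmin, at 1.54, and the lipopolysaccharide receptor Cd14 at 2.59. The 2 lower ones were the metallothionein genes Mt1 (−1.52) and Mt2 (−1.67).

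The inducible paralogues outside the 9 shared only part of the members' patterns. In MM against HM-Wnt at 2 weeks Saa3 (2.47, adjusted p = 0.0458) and Orm3 (2.83, adjusted p = 0.00311) were higher in edgeR, as Saa1 and Saa2 were. Saa4, another paralogue in the list of 23, was higher too (2.23, adjusted p = 0.021). Of all genes 6.84% passed as higher there. Saa3, a serum amyloid A made mostly outside hepatocytes, was at 6.74 ± 1.86 CPM in freshly isolated hepatocytes and 966 ± 556 CPM in fibrotic-like against 98.4 ± 46.6 CPM in homeostatic-like assembloids at 2.5 weeks. This order was opposite to that of Saa1 and Saa2. Against freshly isolated hepatocytes Saa3 rose by 7.14 in fibrotic-like assembloids of 2.5 weeks. Orm3 was at 9.41 ± 5.27 CPM in freshly isolated hepatocytes and highest in homeostatic-like assembloids at 2.5 weeks, at 161 ± 47.8 CPM, as Orm1 and Orm2 were. Between the cell ratios 0 of the 23 passed in edgeR at either time.

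Of 8 negative acute phase proteins, whose plasma level falls in inflammation, 2, 3, 5 and 5 were lower and 1, 1, 0 and 0 higher against freshly isolated hepatocytes, in the order HM-Wnt at 1 and 2 weeks and MM at 1 and 2 weeks. Their median was −0.50, −0.87, −0.81 and −0.89. In MM at 2 weeks the apolipoprotein gene Apoa1 fell by 2.44, the retinol carrier gene Rbp4 by 1.07 and Ahsg, which encodes fetuin-A, by 0.72. In MM against HM-Wnt over both times 4 were lower, among them Ahsg (−0.88) and Rbp4 (−0.69), and 1 higher, beside 1304 and 1488 of 12989 genes. That one was Serpina6, the gene of the glucocorticoid carrier, which was higher at 1 week (3.96) and 2 weeks (4.70) too.

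Upstream of the members, transcripts of the inducing cytokines were few. Il6 had 0 to 3 counts in freshly isolated hepatocytes, 0 in HM-Wnt and at most 2 in MM. It reached 2.60 ± 2.52 CPM in fibrotic-like assembloids at 1 week and 1.23 ± 0.874 CPM at 2.5 weeks, where 26 to 118 counts stood behind it, against 2 to 7 counts in homeostatic-like ones. Lif, which signals through the same receptor chain, had 0 counts in all 3 freshly isolated libraries and 99 to 345 counts in each HepOrg library (2.24 to 9.78 CPM). Of the 9 cytokine genes listed, 4 were tested against freshly isolated hepatocytes, and Tnf rose (2.43, 3.82, 2.61 and 2.00) and Il1a fell (by 2.09, 2.02, 1.81 and 1.55 on the log2 scale) in all 4 comparisons.

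Of 10 receptor genes 1, 2, 2 and 2 were higher, near or below the share of all genes, and 4 lower in each of the 4 comparisons with freshly isolated hepatocytes (median −0.45, −0.52, −0.28 and −0.50). Lifr, the LIF receptor, fell by 3.73, 4.17, 4.81 and 4.96, and Il1rap, the accessory chain of the interleukin 1 receptor, by 4.67, 5.22, 3.40 and 2.67. Osmr, the oncostatin M receptor, rose by 4.87 in HM-Wnt and by 4.67 in MM at 1 week. In MM against HM-Wnt over both times Il1rap was higher (1.90) and Lifr lower (−0.94).

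Among 9 transcription factors 1, 2, 0 and 1 were higher and 4, 3, 2 and 2 lower against freshly isolated hepatocytes (median −0.38, 0.11, −0.41 and −0.01), and in MM the lower ones were near the share of all genes. Cebpa fell by 3.38, 3.02, 3.02 and 2.34, and Cebpd rose by 1.68 and 2.32 in HM-Wnt and by 1.39 in MM at 2 weeks. Between the media over both times Cebpa was higher in MM (0.52) and Cebpb (−1.53) and Cebpd (−1.21) lower. Of 8 genes that STAT3 or NF-kB induce as feedback, 3, 3, 2 and 3 were higher and 1 lower in each comparison (median 0.50, 0.47, 0.39 and 0.19). Tnfaip3, an inhibitor of NF-kB signalling, rose by 1.49, 2.06, 2.90 and 2.69, and the kinase gene Pim1 fell by 3.67, 3.74, 2.25 and 3.18. Socs3, the STAT3 feedback inhibitor, did not pass, at 41.8 CPM (median, from 5.25 to 309) in freshly isolated hepatocytes and 14.9 to 87.4 CPM in HepOrgs.

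Of 6 glucocorticoid targets 0 were higher and 4 lower in each HepOrg condition against freshly isolated hepatocytes (median −1.44, −1.48, −1.67 and −2.17), where 20 to 25.7% of all genes were lower. Tat, the tyrosine aminotransferase gene, fell by 5.07, 6.28, 5.79 and 4.41, Sgk1 by 1.64, 1.56, 2.74 and 2.37, and Tsc22d3 by 1.69, 1.69, 1.35 and 1.39. Of 6 genes for receptors and enzymes that clear the ligands of Hp, Hpx and Lcn2, the lipocalin receptor Slc22a17 rose by 3.56, 3.95, 2.79 and 2.60. Cd163, the macrophage receptor for haptoglobin with hemoglobin, fell in all 4 comparisons, from 65 to 327 counts in freshly isolated hepatocytes to 0 or 1 in HM-Wnt and 0 to 13 in MM. Hmox1, the enzyme that breaks down heme, rose by 2.24, 2.28 and 2.30 in HM-Wnt at 1 and 2 weeks and MM at 1 week.

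Likeness of patterns was described by Pearson's r over the 9 condition means of log2(CPM + 1) among 7731 genes with a mean level of at least 10 CPM, which share libraries and depth. Saa1 and Saa2 followed each other (r = 0.99), and the genes nearest to them outside the 9 were Manf (r = 0.974 and 0.960), a secreted protein of the endoplasmic reticulum stress response, then St6gal1 (0.946) for Saa1 and Rab30 (0.934) for Saa2. Hpx was near Saa1 (0.92), and outside the 9 nearest to Dnajb9 (0.957), a chaperone of the same response, and St6gal1 (0.953). Orm1 and Hp (0.97) formed another pair, and Steap4, a metalloreductase, was nearest to Hp (0.990). Orm2 was nearest to Lcn2 among the members (0.95) and to Igdcc4 (0.983) outside them, and Lcn2 to Rtn4 (0.983). Crp had the pattern least like the rest, with r from −0.35 (Lcn2) to 0.63 (Apcs), and was nearest to Atp5e (0.979). Apcs was nearest to Prg4 (0.964).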

How the data were processed

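Bulk polyA RNA-seq was made with SMARTseq2 and Nextera. STAR alignment to GRCm39 and read assignment by featureCounts were done by the authors, and the deposited counts, whole numbers per gene and library, were used unchanged. The deposited TPM, which the authors derived from these counts and a gene length, entered only an alternative. Of the 37 libraries deposited 27 were used, and the other 10 were not analysed here. Libraries were grouped by their titles.

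Counts were tested with the quasi-likelihood test of edgeR 4.0.16 (R 4.3.3) after TMM scaling and filterByExpr (minimum count 10, minimum total 15), with 1 mean a condition and Benjamini-Hochberg adjustment over all genes tested at 0.05. HepOrgs were tested against freshly isolated hepatocytes in a fit of 15 libraries, against each other in 12, assembloids against each other in 12, and assembloids against MM HepOrgs or freshly isolated hepatocytes in 18. Alternatives were RLE factors, DESeq2 1.42.0, no filter, a minimum of 10 counts in every library, limma 3.58.1 on log2(TPM + 1) with at least 1 TPM in 3 libraries, the contrast's groups alone, a joint fit of all 27 libraries, a block for the replicate number, and each library left out in turn. The fits were also run on counts simulated without the shared deviations of same-numbered libraries, so those runs cannot vouch for the fits here.

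Labels give every condition replicates 1 to 3 and do not say what they share. In the 12 HepOrg libraries the deviations from the condition means correlated at 0.127 to 0.503 in all 18 same-numbered pairs and above 0.1 in 2 of 36 others, so the block is given there.

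The members and gene lists were chosen with earlier results of these data known, so no pattern is independent support. The rule for named genes took all 9 members, up to 4 genes a list and comparison with the highest level among those called, and for likeness the 3 nearest genes with a mean of at least 10 CPM (pseudocount 1), leaving out predicted and unnamed genes. Paralogues, marker genes and genes given as levels were added for description. Transcript lengths came from GENCODE release 39 and promoters from RefSeq (GRCm38.p6). Depth limits low values through counting error, and 3 counts are the limit that a count of 0 allows.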

Additional observations from a re-analysis of the deposited data

How the results depend on the processing

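Of the values and counts recomputed under an alternative, 2286 kept direction and side of the threshold (for counts, stayed within 1.5 times), while 99 lost a call, 82 gained one and 71 turned in sign. The cause was not tested. With all 27 libraries in 1 fit, 2 members passed in HM-Wnt at 1 week (beside 2893 of 14657 genes), 3 at 2 weeks (3248) and 3 in MM at 1 week (2005) and 2 weeks (1890) against freshly isolated hepatocytes, 0 between the media at 2 weeks (7) and 2 over both times (91), 3 between the cell ratios over both times (2218), 1 in fibrotic-like assembloids against MM HepOrgs (1069) and 5 in homeostatic-like assembloids of 2.5 weeks against freshly isolated hepatocytes (1932). DESeq2 called 2 and 5 members between the media at 1 and 2 weeks, 2 between the cell ratios at 1 week and over both times, 2 in fibrotic-like assembloids against MM HepOrgs and 6 in homeostatic-like assembloids against freshly isolated hepatocytes. Limma on log2(TPM + 1) called 4 in HM-Wnt at 2 weeks, 1 in fibrotic-like assembloids against MM HepOrgs, and 6 and 4 in homeostatic-like and fibrotic-like assembloids of 2.5 weeks against freshly isolated hepatocytes. With only the contrast's groups these counts were 4, 4, 9 and 3, beside 6288, 3436, 4726 and 5346 genes, and the minimum of 10 counts in every library gave 1 for fibrotic-like assembloids against MM HepOrgs.

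The replicate block called 2 members between the media at 1 week and 7 at 2 weeks. In the other fits not every same-numbered pair was above 0.1, so the block stands only here. With freshly isolated hepatocytes and HepOrgs, which include the pairs of the HepOrg fit, 19 of 30 were, against 7 of 60 with different numbers (medians 0.159 and −0.0757). Among assembloids 6 of 18 were, against 5 of 36, and with assembloids, MM HepOrgs and freshly isolated hepatocytes 8 of 45, against 11 of 90. There the block left between-condition counts within 1.5 times: 5, 7, 6 and 9 against freshly isolated hepatocytes, 0 among assembloids and 2 for either cell ratio at 2.5 weeks. With it Hpx in MM at 1 week (1.20, adjusted p = 0.0166) and Saa2 in MM at 2 weeks (3.93, adjusted p = 0.0105) passed in edgeR. Signs turned for Apcs in HM-Wnt at 2 weeks (−0.03), Crp in the change of the medium effect with time (0.08) and Saa2 in the change of the cell ratio effect (−0.04), none of them called.

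Limma on log2(TPM + 1) moved the median of all genes by 0.37, 0.64, 0.46 and 0.41 against freshly isolated hepatocytes (HM-Wnt at 1 and 2 weeks, MM at 1 and 2 weeks), −0.24 between the media at 2 weeks, 0.67, 0.38 and 0.51 between the cell ratios (1 week, 2.5 weeks, both), 0.65 in fibrotic-like assembloids against MM HepOrgs, and 0.27 and 0.67 in homeostatic-like and fibrotic-like assembloids against freshly isolated hepatocytes. The minimum of 10 counts moved it by −0.35 between the cell ratios at 1 week and −0.19 over both times. On the TPM scale higher and lower calls over all genes were 4160 and 1280 (edgeR 3341 and 3325), 5844 and 1074 (3500 and 3442), 4492 and 911 (2883 and 2855) and 3816 and 899 (2641 and 2680) in HepOrgs against freshly isolated hepatocytes, 387 and 862 (889 and 599) and 730 and 962 (1488 and 1304) between the media at 2 weeks and over both times, and 2834 and 423 (1602 and 774) in fibrotic-like assembloids of 2.5 weeks. There signs turned, with no call in edgeR, for Hpx in HM-Wnt at 2 weeks (0.25), Crp between the media at 1 week (0.02), Saa1 (0.21), Saa2 (0.26) and Hpx (0.05) with time in HepOrgs, Lcn2 (0.43, 0.12 and 0.27) and Apcs (1.58 and 0.63) between the cell ratios, Orm1 (−0.26), Orm2 (−0.39), Hp (−0.15), Hpx (−0.01), Lcn2 (−0.31) and Apcs (−1.90) in the change of that effect with time, Hpx (−0.28) and Lcn2 (−0.41) in homeostatic-like and Lcn2 (0.02) in fibrotic-like assembloids against MM HepOrgs.

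Leaving out 1 library of a contrast gave 4 members in HM-Wnt at 1 week (beside 5906 to 6527 genes) and 4 to 5 at 2 weeks (6043 to 6813) against freshly isolated hepatocytes. In MM it gave 4 to 7 (4715 to 5571) and 6 to 8 (4471 to 5368). Between the media it gave 0 to 2 at 1 week (42 to 600), 2 to 5 at 2 weeks (578 to 1596) and 3 to 5 over both (1784 to 3209). Between the cell ratios it gave 0 to 3 at 1 week (0 to 1181) and 0 to 8 over both (0 to 4373). Either assembloid at 2.5 weeks had 1 to 2 against freshly isolated hepatocytes, beside 427 to 716 genes in homeostatic-like and 1101 to 1777 in fibrotic-like ones. Log2 fold changes that took both signs were Saa1 (−1.80 to 0.19), Saa2 (−3.07 to 0.12) and Hpx (−0.19 to 0.49) in HM-Wnt at 1 week and Apcs (−0.24 to 1.00) at 2 weeks. Between the media at 1 week they were Lcn2 (−0.28 to 0.28), Crp (−0.31 to 0.12) and Apcs (−0.14 to 0.69), and Crp was at −0.31 to 0.21 at 2 weeks, −0.19 to 0.08 over both and −0.27 to 0.25 in the change with time. With time in HepOrgs they were Saa1 (−0.31 to 0.16), Hp (−0.31 to 0.02), Hpx (−0.23 to 0.17), Lcn2 (−0.13 to 0.16), Crp (−0.20 to 0.07) and Apcs (−0.02 to 0.63). In assembloids they were Crp in the change of the cell ratio effect (−0.21 to 1.25) and, against MM HepOrgs at 1 week, Orm1 (−1.26 to 0.35), Orm2 (−1.62 to 0.17), Hp (−1.02 to 0.42), Hpx (−0.57 to 1.06), Lcn2 (−0.08 to 0.93) and Apcs (−1.08 to 0.22).

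Counts over all genes differed by tool. DESeq2 called 1378 genes between the media at 1 week (edgeR 387), 2445 at 2 weeks (1488) and 411 with time (1). Between the cell ratios it called 791 at 1 week (limma 735, edgeR 0), 287 at 2.5 weeks (edgeR 0) and 1724 over both (limma 1399, edgeR 0). In fibrotic-like assembloids it called 1882 against MM HepOrgs (limma 1989, edgeR 91) and 3766 against freshly isolated hepatocytes (edgeR 2376), and in homeostatic-like ones 766 (edgeR 0) and 2264 (edgeR 1066).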
